A study of Mus musculus with 4 samples.

Results

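The nuclear genes for subunits of the mitochondrial respiratory chain and of ATP synthase were followed in cultured male germ cells of the mouse that had received CBR-5884 or its solvent. A gene was counted when its symbol began with Nduf followed by a, b, c, s or v and a number (complex I), was Sdha, Sdhb, Sdhc or Sdhd (complex II), or began with Uqcr (complex III), Cox4 to Cox8 (complex IV) or Atp5 (complex V), and held no hyphen. This gave 91 of the 36088 genes in the table, of which 42 fell in complex I, 4 in complex II, 8 in complex III, 19 in complex IV and 18 in complex V. Another 13 genes fitted the names but held a hyphen, the mark of pseudogenes and of some other copies, and were left out. The 4 libraries came from wild-type germ cells, sorted from fetal testes kept in culture, with day 14 in the sample titles. There were 2 biological replicates with DMSO (the solvent alone) and 2 with CBR-5884, an inhibitor of serine metabolism known to act on Phgdh, to ask what serine metabolism does in male germ cell differentiation. All 4 shared the wild-type genotype, the culture and the sort. The sources used here give neither the dose of CBR-5884 nor whether testes were pooled. The libraries are called here by condition and by the number 2 or 4 that the table gives them.

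The respiratory chain passes electrons from NADH (complex I) and succinate (complex II) through coenzyme Q, complex III and cytochrome c to oxygen at complex IV, and the proton gradient that this builds drives ATP synthase, complex V. Most subunits are encoded in the nucleus, while a small set of core subunits of complexes I, III, IV and V is encoded in mitochondrial DNA, so that both genomes must supply their parts for assembly. Complex IV has several subunits with a widely expressed gene and a further gene limited to certain tissues, and male germ cells are known for testis isoforms of this kind.

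Some of these genes have near-identical relatives, so the sequences show which values can be read on their own. The testis isoform Cox7b2 was told apart from Cox7b by sequence, since no stretch of 31 bases was shared between their coding sequences. Both are shown 5′ to 3′, with capitals for bases that differ in the alignment or lie outside it, and 65.4% of the aligned bases were identical.
Cox7b: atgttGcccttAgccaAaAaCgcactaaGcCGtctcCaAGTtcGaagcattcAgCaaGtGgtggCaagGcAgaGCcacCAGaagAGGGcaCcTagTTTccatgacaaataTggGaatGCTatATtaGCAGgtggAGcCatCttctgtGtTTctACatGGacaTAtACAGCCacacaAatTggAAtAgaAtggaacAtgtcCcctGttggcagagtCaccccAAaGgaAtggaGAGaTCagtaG
Cox7b2: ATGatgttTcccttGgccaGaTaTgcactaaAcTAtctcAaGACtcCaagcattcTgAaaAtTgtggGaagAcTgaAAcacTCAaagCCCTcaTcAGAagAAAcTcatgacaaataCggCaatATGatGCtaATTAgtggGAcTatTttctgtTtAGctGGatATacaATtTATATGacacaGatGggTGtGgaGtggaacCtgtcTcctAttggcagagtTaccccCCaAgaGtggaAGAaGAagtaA
The opposite case was Ndufb4, an accessory subunit of complex I. Its whole coding sequence of 390 bases was identical to the single-exon gene Ndufb4c, annotated as a processed pseudogene, so that every 31-base word of Ndufb4c also occurred in Ndufb4. Both begin with the same 120 bases.
Ndufb4 and Ndufb4c: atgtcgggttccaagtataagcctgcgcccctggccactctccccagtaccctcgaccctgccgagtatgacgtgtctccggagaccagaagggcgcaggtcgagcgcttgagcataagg
A c-ring gene of ATP synthase, Atp5g2, had the same problem. Its 441-base coding sequence was identical to a transcript of Gm10175 and to Gm10231, both annotated as processed pseudogenes, and all 3 share these first 120 bases.
Atp5g2, Gm10175 and Gm10231: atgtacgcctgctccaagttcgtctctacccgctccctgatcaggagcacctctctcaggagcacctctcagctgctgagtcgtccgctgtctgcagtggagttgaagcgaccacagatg
The sequences are those of GENCODE M21 on the mouse assembly GRCm38. There, Cox7b lies on chromosome X from 106015700 to 106022450 and Cox7b2 on chromosome 5 from 71442824 to 71548205, Ndufb4 on chromosome 16 from 37647170 to 37654453 and Ndufb4c on chromosome 15 from 73809507 to 73809896. Of the 91 genes, 16 shared 20% or more of their 31-base words with other genes of the table and 75 shared less. The 16 included Ndufb4c, Ndufs6b, Ndufa11b, Cox6c2, Atp5g2, Cox7c, Atp5h, Ndufs3, Ndufs5 and Uqcrb, and how their reads were split between copies is uncertain.

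The libraries held an estimated 22500000 to 28200000 reads each, and 22100 to 22988 genes had a value above 0. Values are TPM, the usual measure of transcript abundance relative to the library, a level per transcript length that can be compared between genes. The TPM summed to 1002976 and 998739 in DMSO libraries 2 and 4 and to 997741 in CBR-5884 library 2, but to 966761 in CBR-5884 library 4. Germ cell markers (Ddx4, Dazl and 8 others) summed to 2460 to 2517 TPM. The 10 Sertoli cell markers summed to 309 and 179.6 TPM with DMSO and to 259 and 216 TPM with CBR-5884, and the macrophage markers to 42.0 and 38.2 against 23.5 and 69.1 TPM. Leydig markers summed to 7.0 and 5.52 against 4.90 and 5.23 TPM, endothelial markers to at most 9.05 TPM and peritubular and stromal markers to 62.0 and 50.8 against 59.7 and 53.1 TPM, and no marker of these lists was at 0 in every library. The smallest limma unadjusted p of a marker was 0.0592, that of the stromal collagen gene Col3a1 (log2 fold change −0.67), and in the other lists it was that of Gata4, Cd68, Nanos3, Kdr and Star, between 0.138 and 0.495. Apart from the Leydig sums, which did not overlap, the somatic sums overlapped between the conditions, and their part in the results was not tested. In such bulk samples, fewer cells of a type and less RNA per cell cannot be told apart.

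Subunit mRNAs were abundant in all 4 libraries, and no subunit differed between CBR-5884 and DMSO by the test. The 91 genes took 2.21 and 2.15% of the TPM in DMSO libraries 2 and 4 and 2.19 and 2.11% in CBR-5884 libraries 2 and 4, values that overlapped. A gene entered the test when its mean over the libraries was at least 1 TPM, which 86 of the 91 did. The other 5 were Cox4i2, Cox6c2, Cox8b, Ndufa11b and a second gene listed as Atp5o. Of the 86 genes, 0 passed a limma adjusted p under 0.05, where the share among all 14920 genes tested was 0.00%, and 2 had an unadjusted p under 0.05, against 3.66% of all genes tested. Both lay lower with CBR-5884: Cox8c, the testis isoform of a complex IV subunit, and Ndufv3, a small subunit beside the NADH site of complex I. The smallest limma adjusted p among the 86 was 0.998.

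Fold changes were small throughout. The log2 fold changes of TPM + 1 (CBR-5884 over DMSO) had their median at −0.05 and ran from −0.37 to 0.17, beside a median of −0.01 over all genes tested. For a typical gene of the 86 the 95% interval, not adjusted for the number of genes tested, reached 0.22 (1.17-fold) to either side of its estimate. Smaller changes could not be seen with 2 libraries a condition, and passing the adjusted threshold takes a larger change than this. The mitochondrially encoded mt-Nd3, with a log2 fold change of −0.86, did not pass it (limma adjusted p = 0.215). For comparison, the median absolute log2 difference between the DMSO libraries was 0.11 and between the CBR-5884 libraries 0.12, while that between the conditions was 0.06. For 74 of the 86 genes (86.0%) the difference between conditions was smaller than the larger gap between libraries of the same condition, which held for 80.1% of all genes tested.

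More subunits lay slightly lower than higher with CBR-5884, and this leaning moved with the library. A negative fold change was found for 63 of the 86 genes (73.3%), where 52.8% of all genes tested and 62.3% of those with a mean of at least 50 TPM, a level chosen after the data were seen, were negative. The groups did not overlap for 14 genes that were lower (16.3%, against 17.7% of all genes tested) and for 2 that were higher (2.33%, against 13.6%). Among genes with a mean of at least 50 TPM these shares were 22.9% lower and 8.75% higher. Of the 77 subunit genes with a mean of at least 50 TPM, 72.7% were negative. Without overlap, 16.9% of these 77 were lower and 1.30% higher. Together 18.6% of the 86 did not overlap, where the share over all genes tested was 31.3%. Without CBR-5884 library 4, 40 of 87 genes (46.0%) were negative, with 51.6% of all genes tested, and the median was 0.01. Without DMSO library 2, 50 of 86 genes (58.1%) were negative. The share was larger without DMSO library 4, with 66 of 87 (75.9%), and without CBR-5884 library 2, with 67 of 86 (77.9%). With the libraries set to equal totals, 52 of 86 (60.5%) were negative, with 45.9% of all genes tested, and the median was −0.02.

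**Figure D1:**
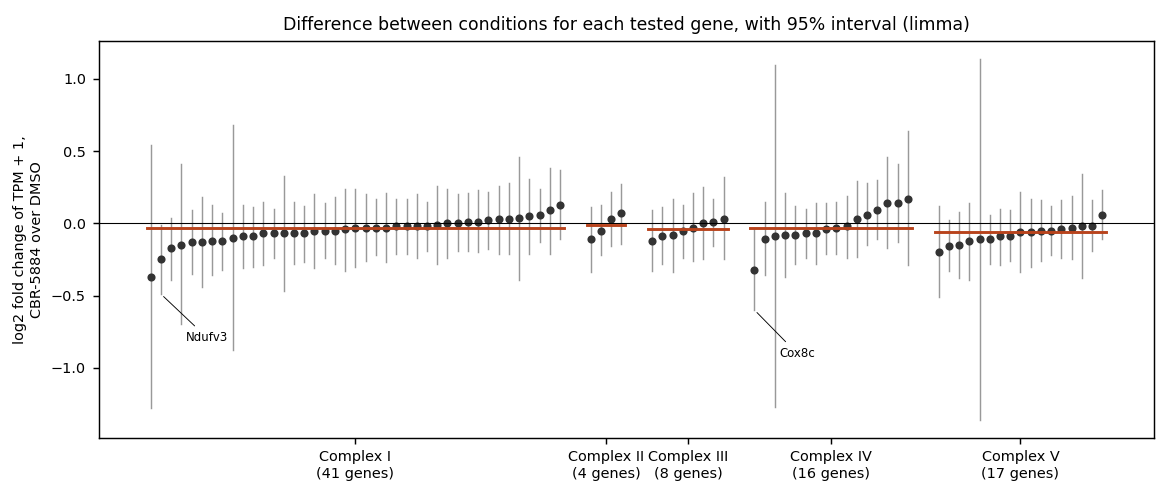
The log2 fold change of TPM + 1 (CBR-5884 over DMSO, vertical axis) for each of the 86 tested genes, sorted within complexes I to V; points are limma estimates, grey lines 95% intervals, red lines the median of each complex. Medians lie between −0.06 and −0.01, and every interval but those of Ndufv3 and Cox8c, the named genes, crosses 0.

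Complex I, the entry of electrons from NADH, had 41 tested genes, and their median log2 fold change was −0.03. Of these 12 were positive, 29 negative and 0 passed the test. The 7 core subunits of the matrix arm, which carry the flavin and the iron-sulfur clusters, were all slightly negative, between −0.09 and −0.03. Of all tested genes with a mean of at least 50 TPM, 62.3% were negative. With equal library totals the median of complex I was 0.00. Ndufv1, which takes the electrons of NADH, had 359.6 and 348 TPM with DMSO and 339 and 333 TPM with CBR-5884. Its groups did not overlap, and its log2 fold change was −0.07 with a 95% interval from −0.24 to 0.10. Ndufs1, the largest iron-sulfur subunit, had 152 and 142 TPM against 144 and 136 TPM, and these overlapped. Ndufs7, which carries the last iron-sulfur cluster before quinone, had 200 and 179.7 TPM against 198 and 174 TPM. The library numbered 2 was the higher in each condition, and the log2 fold change was −0.03.

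The supernumerary subunits of complex I surround the core and serve in its assembly and stability. Ndufv3 had 102 and 88.2 TPM with DMSO and 81.5 and 77.9 TPM with CBR-5884. Both CBR-5884 values lay under both DMSO values, with a log2 fold change of −0.25 (SE 0.10; 95% interval −0.49 to −0.01; limma unadjusted p = 0.0452, adjusted p = 0.998). It was −0.14 without DMSO library 2, the highest of the 4. Ndufs4, a subunit of the matrix arm, had the smallest p among those higher, with 130 and 147 TPM against 144 and 160.4 TPM. Its groups overlapped, and its fold change was 0.13 with an interval from −0.11 to 0.37. Ndufa4, named for complex I but now assigned to complex IV, had 345 and 373 TPM against 374 and 349 TPM. Its paralog Ndufa4l2, known to be induced by hypoxia, was the lowest tested gene of the complex, at 1.10 and 1.76 TPM against 0.99 and 1.54 TPM. Ndufa7 was the highest at 474 TPM on average, with 483 and 446 TPM against 484 and 482 TPM. Apart from Ndufb4 and the genes named as further copies, the usual complex I subunits were spread from 76.9 TPM (Ndufs3) to that value.

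How reads were split between Ndufb4 and its copy is uncertain. Of the 31-base words of Ndufb4, 19.1% occurred in Ndufb4c, and it had 392 to 543 estimated reads a library. Ndufb4 was listed at 22.2 and 29.2 TPM with DMSO and 18.6 and 28.2 TPM with CBR-5884, and Ndufb4c at 184 and 175 against 170 and 192 TPM. The annotated pseudogene thus carried most of the signal, though it holds no 31-base word of its own. Summed, both gave 206 and 204 TPM against 189 and 220.2 TPM, with a log2 fold change of −0.01, and the groups overlapped. The median over 31 usual complex I subunits with few shared words, Ndufb4 among them, was 180.4 TPM. To which of both genes the shared signal belongs was not tested.

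Complex II, succinate dehydrogenase, is also an enzyme of the citric acid cycle and has no subunit in mitochondrial DNA. Its 4 genes had log2 fold changes from −0.11 to 0.07. The flavoprotein Sdha had 431 and 378 TPM with DMSO and 385 and 361 TPM with CBR-5884, and the iron-sulfur subunit Sdhb had 168 ± 3.46 and 163 ± 3.43 TPM (SD, n = 2). Both were slightly negative, with limma unadjusted p = 0.255 and 0.549. The membrane anchors were slightly positive: Sdhc had 241 and 217 TPM against 243 and 236 TPM, and Sdhd had 101 and 95.5 TPM with DMSO and 101 TPM in both CBR-5884 libraries. For Sdha, Sdhc and Sdhd the groups overlapped. In summed TPM the complex had 940 and 861 against 895 and 858.

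Complex III, which passes electrons from coenzyme Q to cytochrome c, had 8 genes, whose log2 fold changes lay between −0.12 and 0.03 around a median of −0.04. The Rieske iron-sulfur protein Uqcrfs1 was the least abundant, with 85.9 and 70.1 TPM with DMSO and 82.7 and 76.4 TPM with CBR-5884, and these overlapped. The core proteins lay somewhat above it. Uqcrc1 had 115 and 120.1 TPM against 114 and 107 TPM, and Uqcrc2 had 128 and 111 against 115 and 119 TPM. The small subunits Uqcrb, Uqcrh, Uqcrq and Uqcr11 had 341 to 371 TPM on average, with Uqcr10 at 213 TPM. Uqcr11 had the smallest p among those lower, with 342 and 369 TPM against 345 and 309 TPM (fold change −0.12, interval −0.33 to 0.09). The ratio from the highest to the lowest usual subunit was 4.71 in this complex, 3.91 in complex II, 8.09 in complex IV and 5.20 in complex V, over subunits with few shared words. In complex I it was 19.3, from Ndufa7 to Ndufb4, whose level is uncertain.

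Complex IV, cytochrome c oxidase, had 16 tested genes, 6 of them above 0 and 10 below, around a median log2 fold change of −0.03. Its most abundant subunit, and by the mean over the libraries that of the whole set, was Cox4i1, with 1157 and 1125 TPM with DMSO and 1140 and 1034 TPM with CBR-5884. In CBR-5884 library 4 alone, Atp5b of complex V was listed above it, at 1040 TPM. Cox6a1 had 737 and 722 TPM against 692 and 698 TPM, with groups that did not overlap and a log2 fold change of −0.07 (95% interval −0.24 to 0.10). Cox5a and Cox5b, which lie on the matrix side, had fold changes of −0.02 and −0.11. Cox6c had 473 and 420.4 TPM against 493 and 422 TPM, and Cox7c, with 24.5% shared words, had 549 and 532 against 603 and 529 TPM. In both of these CBR-5884 library 2 was the highest and the groups overlapped. Cox7a2l, a factor for supercomplexes of the respiratory chain, had 134 and 165 against 148 and 134 TPM.

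The tissue-limited isoforms of complex IV differed widely in level in these cells. The testis isoforms were present in all 4 libraries. The heart and muscle isoform Cox7a1, at 19.5 TPM on average, was about as high as the testis isoform Cox6b2, at 20.3 TPM. Cox7b2 had 107 and 99.9 TPM with DMSO and 101 and 95 TPM with CBR-5884, beside 133 and 128 against 159.5 and 130.1 TPM for the widely expressed Cox7b. Of the summed Cox7b and Cox7b2 TPM, Cox7b2 thus held 44.6 and 43.8% with DMSO and 38.7 and 42.2% with CBR-5884. The shares did not overlap between conditions, but the difference of −3.74 percentage points was −1.98 without CBR-5884 library 2, in which Cox7b was highest. With 2 libraries against 2, an exact permutation test of such a share cannot give a p under 0.33.

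Cox8c, the testis isoform of Cox8a, had 28.1 and 28.9 TPM with DMSO and 23.8 and 21.7 TPM with CBR-5884. Both CBR-5884 values lay under both DMSO values, a log2 fold change of −0.32 (SE 0.12; 95% interval −0.60 to −0.03; limma unadjusted p = 0.034, adjusted p = 0.998). An estimated 193 to 236 reads a library stood behind it. Its share of the summed Cox8a, Cox8b and Cox8c TPM was 6.51 and 6.94% against 5.71 and 5.42%, while Cox8a itself had 404 and 388 against 393 and 378 TPM. Cox6b2, the testis isoform of Cox6b1, went the other way, with 19.1 and 19.3 TPM against 20 and 22.7 TPM. Its groups did not overlap, and its fold change was 0.14 with an interval from −0.17 to 0.46 (153 to 206 estimated reads). Cox6b2 made up 4.63 and 4.55% of its pair against 4.75 and 5.61%, with Cox6b1 at 393 and 406 against 401 and 382 TPM.

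The isoforms known from other tissues were mostly near 0. Cox4i2, known from lung, reached at most 0.22 TPM and was listed at 0 in 2 of the 4 libraries, and Cox8b, known from heart and muscle, reached at most 0.51 TPM. Cox6a2, the heart and muscle isoform of Cox6a1, had 0.77 and 2.17 TPM with DMSO and 0.53 and 2.26 TPM with CBR-5884, and was higher in both libraries numbered 4. Cox7a1, also known from heart and muscle, was the exception with 16.7 and 19.6 TPM against 24.3 and 17.4 TPM, which is 6.82 and 8.65% against 9.28 and 7.11% of the pair with Cox7a2. Its groups overlapped. No stretch of 31 bases was shared between the coding sequences of any of the 6 isoform pairs compared, whose identity was 54.9% for Cox8a and Cox8c and 62.5 to 65.4% for the others.

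**Figure D2:**
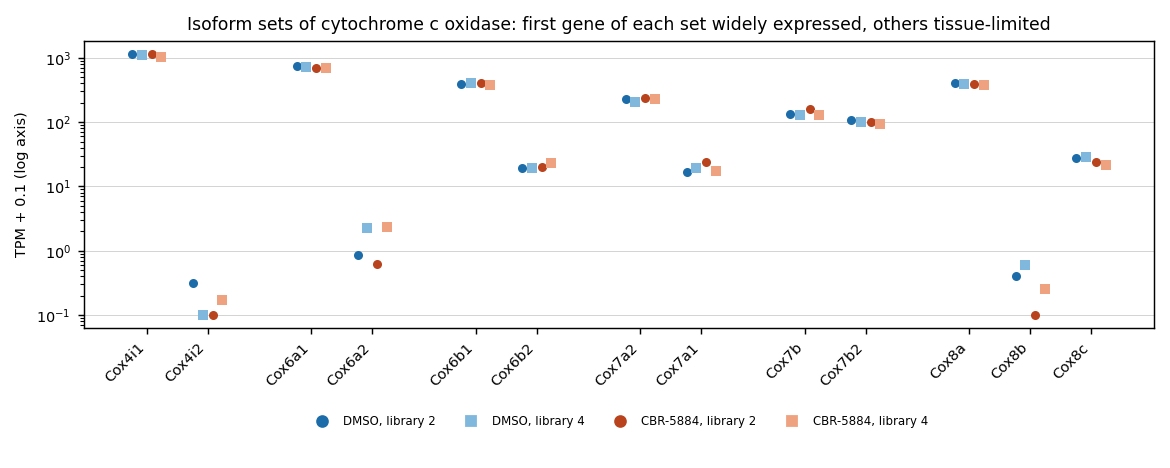
TPM + 0.1 on a log axis for isoform sets of cytochrome c oxidase, with a point for each library (blue DMSO, red CBR-5884, circles library 2, squares library 4). Cox7b2 lies close to Cox7b, Cox6b2, Cox7a1 and Cox8c lie near 20 TPM in all 4 libraries, and Cox4i2, Cox6a2 and Cox8b lie near or under 2 TPM.

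ATP synthase, complex V, leaned lower most evenly, within the limits of the libraries. Of its 17 tested genes 16 lay below 0 and 0 passed the test, and the log2 fold changes lay between −0.20 and 0.06 around a median of −0.06. Below 0 were thus 94.1% of them, where 52.8% of all genes tested and 62.3% of those with a mean of at least 50 TPM were. The groups did not overlap for 5 of the 17 genes that were lower (29.4%, against 17.7% of all genes tested) and for 1 that was higher (5.88%, against 13.6%). Among genes with a mean of at least 50 TPM these shares were 22.9% lower and 8.75% higher. Leaving out CBR-5884 library 4 gave a median of 0.01, and leaving out CBR-5884 library 2 gave −0.13. Summed TPM was 6544 and 6422 with DMSO and 6358 and 5967 with CBR-5884, a difference of −4.95%. It was −1.94% without CBR-5884 library 4, −7.96% without CBR-5884 library 2, −5.83% without DMSO library 4 and −4.05% without DMSO library 2. With equal library totals it was −3.17%.

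The F1 part, which is the head where ATP is made and its central stalk, had fold changes from −0.15 to −0.02 over 5 genes. The catalytic beta subunit Atp5b had 1146 and 1071 TPM with DMSO and 1036 and 1040 TPM with CBR-5884, groups that did not overlap, with a fold change of −0.09 (95% interval −0.29 to 0.10). The alpha subunit Atp5a1 had 305 and 296 TPM against 286 and 295 TPM. The gamma subunit Atp5c1, the rotating shaft, had 292 and 281 against 277 and 291 TPM. The alpha and beta subunits stand in equal number in the enzyme, while the level of Atp5b was well above that of Atp5a1 in each library. In the stalk that holds the head in place, Atp5o had 448 and 461 against 428 and 415 TPM and Atp5pb 494 and 479.6 against 451 and 467 TPM, both without overlap. Atp5k, subunit e of the membrane part, had the smallest p of the complex, with 364 and 363 TPM against 319 and 333 TPM (fold change −0.16, interval −0.33 to 0.02, limma unadjusted p = 0.0672). Atp5md, another small membrane subunit, was the 1 positive member, with 421 and 435 against 449 and 443 TPM.

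The c-ring, the rotor driven by protons, is built from a mature protein that 3 genes encode. Atp5g1 had 237 and 305 TPM with DMSO and 226 and 244 TPM with CBR-5884, and Atp5g3 had 346 and 327 against 345 and 308 TPM. Atp5g2 followed the library number instead of the condition, with 25.1 and 9.63 TPM against 21.9 and 9.45 TPM. Its identical copy Gm10175 was listed at 243 and 274 against 265 and 258 TPM, and Gm10231 at 14.5 and 0 against 10.6 and 0 TPM. Summed, Atp5g2, Gm10175 and Gm10231 gave 283 and 283 TPM with DMSO and 297 and 267 TPM with CBR-5884. In the sum the gap between library numbers seen for Atp5g2 was gone with DMSO, and the fold change was −0.01. So the level of Atp5g2 itself cannot be read from these values, and most of the signal for its coding sequence was assigned to annotated pseudogenes.

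**Figure D3:**
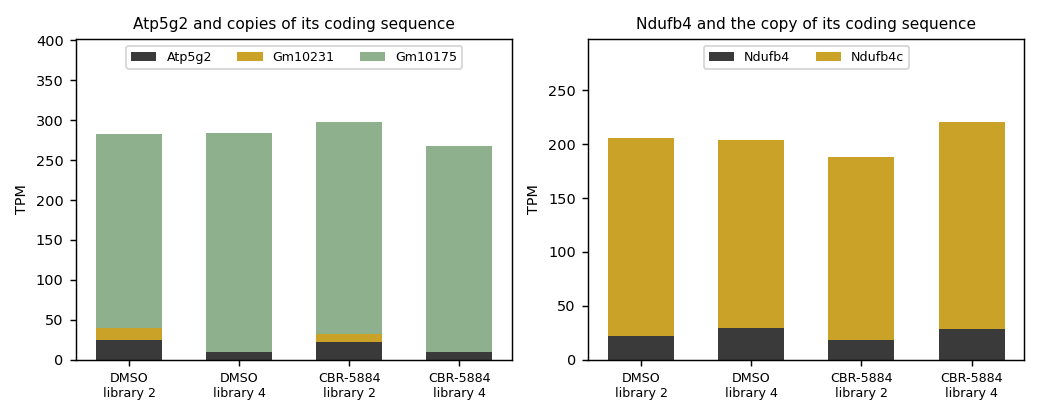
TPM in each library of Atp5g2 with Gm10231 and Gm10175 (left) and of Ndufb4 with Ndufb4c (right), stacked so that bar height is the sum. Most of each bar belongs to the annotated pseudogene, and the summed bars span 267 to 297 TPM on the left and 189 to 220.2 TPM on the right.

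Across complexes, levels differed far more between subunits than between libraries. Over tested genes, copies and tissue-limited isoforms included, the median of the mean level was 158 TPM in complex I and 200 in complex II. It was 277 in complex III, 254 in complex IV and 317 in complex V. Over usual subunits with few shared words the medians were 180.4, 200, 213, 395 and 331 TPM, with complex IV the highest. The transcripts were short, with a median longest annotated transcript of 988 bases against 3078 bases over all genes tested with a known length.

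**Figure D4:**
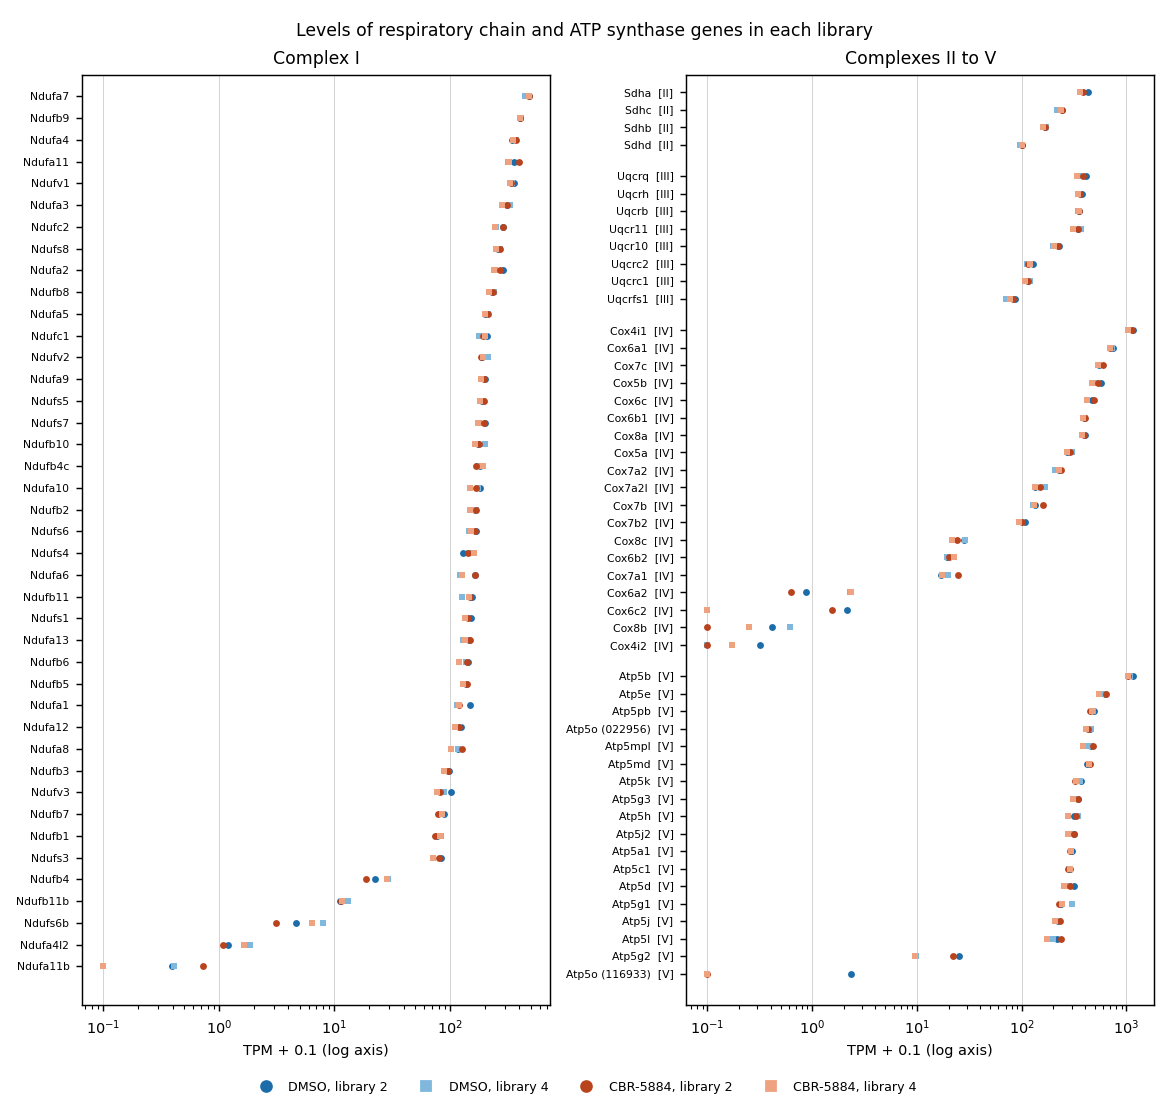
TPM + 0.1 on a log axis for 90 of the 91 genes in each library (blue DMSO, red CBR-5884, circles library 2, squares library 4), complex I on the left and complexes II to V on the right, sorted by mean level. The 4 points of a gene mostly coincide, while genes range from under 1 to over 1000 TPM.

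The libraries numbered 2 stood above those numbered 4 for many subunits. Both libraries numbered 2 were above both numbered 4 for 39 of the 86 genes (45.3%), where 21.8% of all genes tested did so, and below them for 9 (10.5%, against 17.8%). Sertoli marker sums were likewise higher in the libraries numbered 2, at 309 and 259 against 179.6 and 216 TPM, as were peritubular and stromal sums, at 62.0 and 59.7 against 50.8 and 53.1 TPM. Endothelial sums were 8.80 and 9.05 against 8.15 and 8.37 TPM, and germ cell sums 2471 and 2517 against 2460 and 2460 TPM. Macrophage sums, at 42.0 and 23.5 against 38.2 and 69.1 TPM, did not follow the number. Nor did Leydig sums, at 7.0 and 4.90 against 5.52 and 5.23 TPM. The part of these cells in the shift was not tested, and what the numbers stand for was not stated in the labels. The gene counts here use TPM as listed, in which CBR-5884 library 4 had the lowest total (966761). They were not repeated with equal totals or among genes with a mean of at least 50 TPM.

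Subunits encoded in mitochondrial DNA differed in their pattern from their nuclear partners, side by side in the same libraries. The 7 mitochondrial complex I mRNAs summed to 6647 and 6673 TPM with DMSO and 9011 and 9412 TPM with CBR-5884, against 7431 and 7150 and 7380 and 6928 TPM for the 42 nuclear genes. These 42 were taken by name, so they include copies such as Ndufb4c. They also include Ndufa4, now assigned to complex IV, which the nuclear sum of complex IV therefore lacks. The ratio of the mitochondrial to the nuclear sum was 0.895 and 0.933 with DMSO and 1.22 and 1.36 with CBR-5884. For complex III, with mt-Cytb alone, the ratio was 1.08 and 1.14 against 1.49 and 1.79. For complex IV it was 2.24 and 2.27 against 2.98 and 3.28. In these 3 complexes the ratio was higher in both CBR-5884 libraries than in both DMSO libraries, and with 2 libraries against 2 no exact permutation test could give a p under 0.33. For complex V the ratio was 1.39 and 1.76 against 1.47 and 2.01 and overlapped, being higher in both libraries numbered 4. Of the mitochondrial mRNAs, 0 of 13 passed the limma adjusted threshold and 10 had an unadjusted p under 0.05, against 3.66% of all genes tested. The smallest p was that of mt-Nd3, a complex I core subunit that went against the sum, with 334 and 341 TPM with DMSO and 200.03 and 171 TPM with CBR-5884 (log2 fold change −0.86, 95% interval −1.09 to −0.63, limma adjusted p = 0.215).

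**Figure D5:**
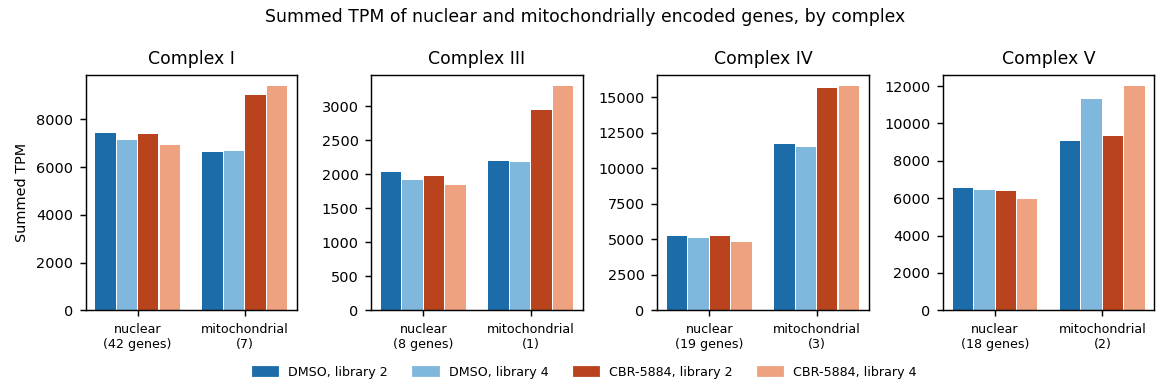
Summed TPM (vertical axis, from 0, with its own scale for each complex) of nuclear and mitochondrially encoded genes for the 4 complexes that have both, with a bar for each library. The nuclear bars are close to level, while the mitochondrial bars of complexes I, III and IV are taller in both CBR-5884 libraries, as with 9011 and 9412 TPM against 6647 and 6673 TPM in complex I.

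Genes that build or serve the chain without being subunits also held no gene past the test. Of the 17 complex I assembly factors 5 were positive and 12 negative (median −0.03), and the smallest p was that of Ecsit, with 61.9 and 69.3 TPM with DMSO and 56.9 and 57.7 TPM with CBR-5884. Of the 6 complex III assembly factors 2 had an unadjusted p under 0.05, both lower with CBR-5884, where 2.15% of all genes tested were at such a p and lower. Bcs1l, which inserts the Rieske protein, had 34.3 and 35.9 against 27.8 and 27.9 TPM (log2 fold change −0.32, 95% interval −0.58 to −0.07, limma adjusted p = 0.998). Uqcc1, which serves in the making of cytochrome b, had 32.2 and 35.0 against 28.5 and 26.4 TPM. The Rieske protein gene Uqcrfs1 itself overlapped between the conditions.

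Of the 20 complex IV assembly factors 13 were positive and 7 negative, with a median of 0.06, where 52.8% of all genes tested were negative. Their sums overlapped, at 1387 and 1337 TPM with DMSO and 1417 and 1235 TPM with CBR-5884. Whether these counts held with a library left out was not tested. Pet100 had 29.6 and 27.4 TPM with DMSO and 44.4 and 37.2 TPM with CBR-5884, the highest values being those of CBR-5884 (log2 fold change 0.50, 95% interval 0.19 to 0.81, limma unadjusted p = 0.00717, adjusted p = 0.998). The 4 complex II and the 4 ATP synthase assembly factors had 2 positive and 2 negative each, led by Sdhaf3 and Tmem70, whose intervals of −0.36 to 1.0 and −0.10 to 0.47 hold 0. Of 13 coenzyme Q synthesis genes 5 were positive and 8 negative, with a median of −0.01. The smallest p among them was that of Coq7, with 201 and 207 TPM with DMSO and 203 and 179 TPM with CBR-5884, values that overlapped.

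Cytochrome c, the carrier between complexes III and IV, also has a testis form. Cyct, the testis form, had 123 and 85.1 TPM with DMSO and 111 and 101 TPM with CBR-5884, and none of its 31-base words occurred elsewhere. The somatic gene Cycs was listed at 17.7 and 21.2 against 18.6 and 22.3 TPM. Its level is uncertain, since 26.2% of its words occur in Gm10053, listed at 206 and 207 against 197 and 212 TPM. Neither Cyct nor Cycs passed the test, with groups that overlapped.

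Of the transcriptional regulators of respiratory genes, 9 were tested, 3 positive and 6 negative, with a median of −0.06. Nrf1, an activator of nuclear genes for the respiratory chain, had 85.6 and 82.2 TPM with DMSO and 68.9 and 76.0 TPM with CBR-5884. Both CBR-5884 values lay under both DMSO values, with a fold change of −0.21 and an interval from −0.43 to 0.01 (limma unadjusted p = 0.056). Gabpa, the DNA-binding part of GABP, had 94.2 and 83.9 against 80.3 and 87.2 TPM, and Yy1 had 52.7 and 44.7 against 55.8 and 56.4 TPM. The coactivator Ppargc1a, a main driver of mitochondrial genes in muscle and brown fat, reached at most 0.48 TPM and was not tested.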

How the data were processed

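RNA of 4 libraries was sequenced; per the labels' protocols RNA came from an RNeasy micro kit and 100 ng entered a TruSeq RNA library. The submitters' processing notes name fastp, kallisto and mm10; versions, settings and strand use are not stated there. Both deposited measures, TPM and scaled reads per base, are gene-level signal values, scaled by the authors per library and repeated on every transcript's line; a single line was read for each gene in each library. They are not counts, so no count test was run. Depth was estimated from the step between low scaled reads; 47.4 to 48.7% of low values were whole multiples of it (tolerance 0.05), so whole reads were not recovered.

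Of the genes, 14920 averaged 1 TPM or more and entered a two-sided limma-trend fit (limma 3.58.1, R 4.3.3) of log2(TPM + 1) on all 4 libraries, with no covariate and Benjamini-Hochberg adjustment over all of them. Fold changes on this scale understate changes of low genes. The fit was tested on simulated data. These were drawn from its own fitted spread, with no difference by library number, so they could not test those assumptions. The members and lists were chosen with earlier results of these data known, and the classes of subunits, the level of 50 TPM and the limit of 20% shared words after values were seen. Genes named are a panel of main subunits and isoforms, the smallest p in each direction and the highest and lowest level in each complex, any member at an unadjusted p under 0.05, and the smallest p of each context list; others are named as examples of groups that did not overlap or share sequence, and 1 gene of the panel is not reported here. Shared sequence was counted as 31-base words on both strands of GENCODE M21 transcripts. The table's library numbers 2 and 4 cannot be matched to the labelled replicate numbers (1 and 2), while the condition of each library is certain. Where nothing says that replicates came from separate animals, p-values measure only the spread between these libraries.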

Additional observations from a re-analysis of the deposited data

How the results depend on the processing

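No subunit gene passed the threshold under any of 12 other settings: pseudocounts of 0.1 and 5, no filter or a filter at 5 TPM, equal library totals, median-of-ratios factors, scaled reads per base, each library left out in turn, and the table number as a replicate block. At an unadjusted p under 0.05 there were 0 to 2 of them, and the smallest adjusted p was 0.662, without DMSO library 2. Over all genes, scaled reads per base called 1 gene lower (Hspa1b), and the other 11 settings called 0; 397 to 1079 genes had an unadjusted p under 0.05. With the replicate block 0 genes and 0 subunit genes were called and the fold changes were the same by construction; libraries of the same number correlated at 0.20 in their deviations from group means across genes, and nothing in the labels pairs them.

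The median log2 fold change over subunits lay between −0.08 and 0.01 with a library left out. For complex I it ranged from −0.08 to 0.02, the latter without CBR-5884 library 4. It was −0.05 over genes with few shared words and −0.04 over those with a mean of at least 50 TPM, both chosen after the data were seen. Of 42 named genes 22 kept their sign in every setting. With equal totals Uqcrc2 (0.00), Cox5a (0.00) and Atp5c1 (0.01) turned positive; why was not tested. Others changed sign with a library left out. Their ranges were −0.05 to 0.06 for Ndufa4, −0.30 to 0.10 for Ndufa4l2, −0.12 to 0.06 for Ndufs7, −0.01 to 0.14 for Sdhc, −0.01 to 0.07 for Sdhd, −0.01 to 0.02 for Uqcrb, −0.13 to 0.08 for Uqcrc2, −0.11 to 0.18 for Uqcrfs1, −0.19 to 0.02 for Uqcrq, −0.11 to 0.06 for Cox5a, −0.63 to 0.46 for Cox6a2, −0.06 to 0.01 for Cox6b1, −0.08 to 0.15 for Cox6c, −0.06 to 0.41 for Cox7a1, −0.22 to 0.07 for Cox7a2l, 0.00 to 0.29 for Cox7b, −0.03 to 0.16 for Cox7c, −0.05 to 0.02 for Atp5c1, −0.76 to 0.54 for Atp5g2 and −0.13 to 0.04 for Atp5g3.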
